A study of Lupinus albus with 12 samples.

Results

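On chromosome 5 of white lupin (*Lupinus albus*), 7 genes named for the helical domain of plant lipid transfer proteins lie close together. They were taken from 23427 genes with a deposited value. They are Lalb_Chr05g0225621, Lalb_Chr05g0225631, Lalb_Chr05g0225651, Lalb_Chr05g0225671, Lalb_Chr05g0225691, Lalb_Chr05g0225701 and Lalb_Chr05g0225711. They were chosen by their name, by their position and with their values over the time course in these 12 libraries in view. What follows on the 7 genes is therefore a description: no *p*-value is given for them, and how many of them passed the study's thresholds is stated without support being drawn from it.

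Plant lipid transfer proteins are small secreted proteins rich in cysteines. Their helices, held together by disulfide bridges, enclose a hydrophobic cavity that binds fatty acids and other lipids, and many of them are found in the cell wall. The same domain occurs in seed storage albumins and in inhibitors of digestive enzymes, which is why the protein name lists all of these. Members of the family have been tied to cutin and suberin layers, to defense and to cell wall loosening in other plants. Which of these roles the lupin genes have is not given by the annotation.

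All plants were wildtype white lupin of the cultivar Amiga, grown hydroponically in Hoagland nutrient solution, and root sections with the tip were collected. Roots received sucrose at 10 mM for 10, 15 or 20 min, or none (control, 0 min), with 3 libraries per time point. The 3 biological replications were sequenced as cDNA on 3 Oxford Nanopore flow cells, so the replicate number of a library also names its flow cell. A difference between flow cells therefore cannot be told apart from a difference between the plants of the replications. The labels give 3 plants per replicate and the study's methods give 1. For Lalb_Chr05g0225671, the methods also describe a qRT-PCR assay.

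The deposited values carry the name CPM, a unit relative to sequencing depth, but they were whole numbers that summed to between 184071 and 407780 per library. They were treated as scores of unknown scale, and the number of reads behind a value is unknown. Control replicate 2 had the lowest total and control replicate 3 the highest, with 196413 in replicate 1 of 15 min. Since totals differed, shares of the library total are given beside the values. In flow cell 3, genes of photosynthesis, used as markers of green tissue (72 genes by name, of which 50 passed the filter described further on and 0 were at 0 in every library), summed to between 1097 and 2083. In the other flow cells they summed to between 110 and 277, and 13 of the 50 were higher in all 4 libraries of flow cell 3 than in the other 8, as were 7.86% of all tested genes (5.58% by share of the library total). The name Casparian strip membrane protein, intended as the root marker, found 0 genes. CASP-like proteins, relatives of those proteins chosen after seeing this, summed to between 160 and 319 in flow cells 1 and 2 and to between 224 and 297 in flow cell 3.

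The 7 genes span 104 kb of chromosome 5, from base 9093629 to base 9197739 of the assembly CNRS_Lalb_1.0. Lalb_Chr05g0225621 (9093629 to 9094892) and Lalb_Chr05g0225631 (9103660 to 9104788) stand at one end, separated by 8.77 kb. After the widest gap between neighbours, 30.0 kb, comes Lalb_Chr05g0225651 (9134811 to 9136147). Lalb_Chr05g0225671 (9149581 to 9150484), Lalb_Chr05g0225691 (9161716 to 9162507), Lalb_Chr05g0225701 (9182533 to 9183057) and Lalb_Chr05g0225711 (9196941 to 9197739) follow. The outer members of these last 4, Lalb_Chr05g0225671 and Lalb_Chr05g0225711, share a single UniProt entry although 46.5 kb lie between them. The inner members, Lalb_Chr05g0225691 and Lalb_Chr05g0225701, share another. UniProt keeps identical protein sequences of a species in a single entry, so reads from such copies can be hard to assign to the one or the other.

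The annotation places 10 genes in this span, of which 3 are not among the 7. Lalb_Chr05g0225641, named for a pentatricopeptide repeat, a motif of proteins that bind organellar RNA, had values between 0 and 2. Lalb_Chr05g0225661, named for a reverse transcriptase zinc-binding domain, was listed at 0 in every library except replicate 3 of 20 min, where it was 42. The remaining one, Lalb_Chr05g0225681, for which the annotation used here gives no name, had no value in the series and could not be analysed.

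The level of the 7 genes covered a wide range. Divided by the length of the gene from start to end, introns included, the mean value over the 12 libraries was 1561 per kb for Lalb_Chr05g0225711, 1083 per kb for Lalb_Chr05g0225671 and 1013 per kb for Lalb_Chr05g0225631. These were the second, the third and the fourth highest levels per kb among the 72 genes with a lipid transfer protein name. Only Lalb_Chr13g0291901, named here after its value was seen, was higher, at 1731 per kb. Far below came Lalb_Chr05g0225621 at 69.3 per kb and Lalb_Chr05g0225691 at 48.1 per kb. Lalb_Chr05g0225701 reached 3.02 per kb and Lalb_Chr05g0225651 1.56 per kb. The order of some genes rests on the division by length. By mean value alone, Lalb_Chr05g0225711 (1247) was at rank 2 of the 72, Lalb_Chr05g0225631 (1144) at rank 3 and Lalb_Chr05g0225671 (979) at rank 4. Likewise, Lalb_Chr05g0225651 (2.08) was then above Lalb_Chr05g0225701 (1.58). The 3 high genes were also among the most abundant of all genes: ranked by value within each library, Lalb_Chr05g0225711 stood between rank 19 and rank 79 in the control and between rank 5 and rank 25 under sucrose.

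For Lalb_Chr05g0225671 the control libraries stood at 480, 429 and 493, in the order of flow cells 1, 2 and 3. Those of 10 min stood at 1406, 1651 and 1373, those of 15 min at 701, 1156 and 1106, and those of 20 min at 724, 982 and 1242. Every sucrose library was above every control library, and every library of 10 min was above every library of 15 and 20 min. For roots of mixed cells, a higher value from more cells of a type cannot be told apart from more RNA per cell. The log2 FC (fold change) against the control, taken on the scale of log2(value + 1), came to 1.66 after 10 min, 1.05 after 15 min and 1.04 after 20 min (SE 0.38, n = 3 per group), or 3.15-fold, 2.06-fold and 2.05-fold.

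Lalb_Chr05g0225711, with the same UniProt entry, followed the same course at higher values. The control libraries stood at 626, 567 and 600, those of 10 min at 1791, 2058 and 1753, those of 15 min at 921, 1500 and 1405, and those of 20 min at 893, 1231 and 1623. Here too the control and the sucrose libraries did not overlap. Its log2 FC came to 1.64 after 10 min, 1.06 after 15 min and 1.02 after 20 min (SE 0.38).

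As a share of the library total, Lalb_Chr05g0225671 kept all 9 sucrose libraries above the 3 control libraries, while for Lalb_Chr05g0225711 the groups overlapped. With each library scaled to the mean total, the log2 FC at 10 min was 1.30 for Lalb_Chr05g0225671 and 1.28 for Lalb_Chr05g0225711, and at 20 min it was 0.73 and 0.72. This scaling also moved the median of all tested genes from 0.19 to −0.01 at 10 min and from 0.26 to 0.05 at 20 min. Relative to that median, Lalb_Chr05g0225671 stood 1.31 higher at 10 min and 0.68 higher at 20 min. The difference at 20 min was smaller without flow cell 3, a setting added after seeing the data. Without scaling, Lalb_Chr05g0225671 then stood 0.42 above the median of all tested genes, against 0.78 with all libraries. For Lalb_Chr05g0225711 it was 0.34 against 0.76. At 10 min the 2 genes stood 1.38 and 1.32 above it without flow cell 3. The higher values at 10 min than at 20 min, seen in all libraries of both genes (and for 1.05% of all tested genes), did not hold as a share of the total. There the libraries of the 2 times overlapped for all 7 genes, against 1.45% of tested genes without overlap.

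For Lalb_Chr05g0225631, the third abundant gene, control values were 646, 314 and 1136. Those of 10 min were 1351, 1708 and 1512, those of 15 min 472, 1282 and 1509, and those of 20 min 920, 1262 and 1613. By value, only at 10 min were all 3 libraries above the control, since control replicate 3 was higher than replicate 1 of 15 min and of 20 min. By share of the library total, the libraries of 20 min (30.4, 35.4 and 47.5 per 10000) were also all above the control (highest 27.9 per 10000). The log2 FC came to 1.31 after 10 min, 0.66 after 15 min and 1.01 after 20 min (SE 0.56).

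Lalb_Chr05g0225621, at the end of the cluster, was much lower and more scattered. Control values were 17, 4 and 86, those of 10 min 82, 94 and 146, those of 15 min 38, 81 and 263, and those of 20 min 60, 106 and 74. In flow cells 1 and 2 the control (4 to 17) and the sucrose libraries (38 to 106) were apart, and control replicate 3 lay within the range of the sucrose libraries. Its log2 FC was the largest of the 7 at each time, 2.40 after 10 min, 2.25 after 15 min and 1.99 after 20 min, with the wide SE of 0.90. Without control replicate 2, which had the value of 4, these became 1.41, 1.26 and 0.99, and without control replicate 3 they became 3.47, 3.32 and 3.05.

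The remaining 3 genes had low values in most libraries. For Lalb_Chr05g0225651 the control libraries were listed at 0, 0 and 1, those of 10 min at 2, 4 and 3, those of 15 min at 0, 3 and 3, and those of 20 min at 2, 4 and 3. At such values a single unit moves the log2 FC, which was 1.64 at 10 min and at 20 min and 1.00 at 15 min (SE 0.55), and which fell to 0.58 at 20 min when 5 instead of 1 was added to each value.

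Lalb_Chr05g0225691 followed the replicate, and with it the flow cell, more than the treatment. In flow cell 3 it stood at 58 in the control and at 63, 57 and 267 after 10, 15 and 20 min, against 0 to 4 in the other 8 libraries. Its log2 FC of 0.04 after 10 min, 0.77 after 15 min and 1.5 after 20 min had an SE of 2.16, and turned negative when single libraries were left out. At 20 min it ranged from −0.63 without replicate 3 of 20 min to 3.30 without control replicate 3. At 10 min it was −0.10 with each library scaled to the mean total and −0.04 with median-of-ratios scaling.

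Lalb_Chr05g0225701, which shares its UniProt entry, was listed at 0 in the control and in every library of flow cells 1 and 2. Its only values above 0 were 6, 4 and 9 in flow cell 3 at 10, 15 and 20 min. It passed the filter on low values through these 3 libraries alone, and control replicate 3 was at 0. Flow cell 3 is also where the genes of photosynthesis were high, and their part in the values of these 2 genes was not tested. All 4 libraries of flow cell 3 above the other 8 was found for Lalb_Chr05g0225691 and for 7.86% of all tested genes (by share of the library total, the same member and 5.58%).

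**Figure D1:**
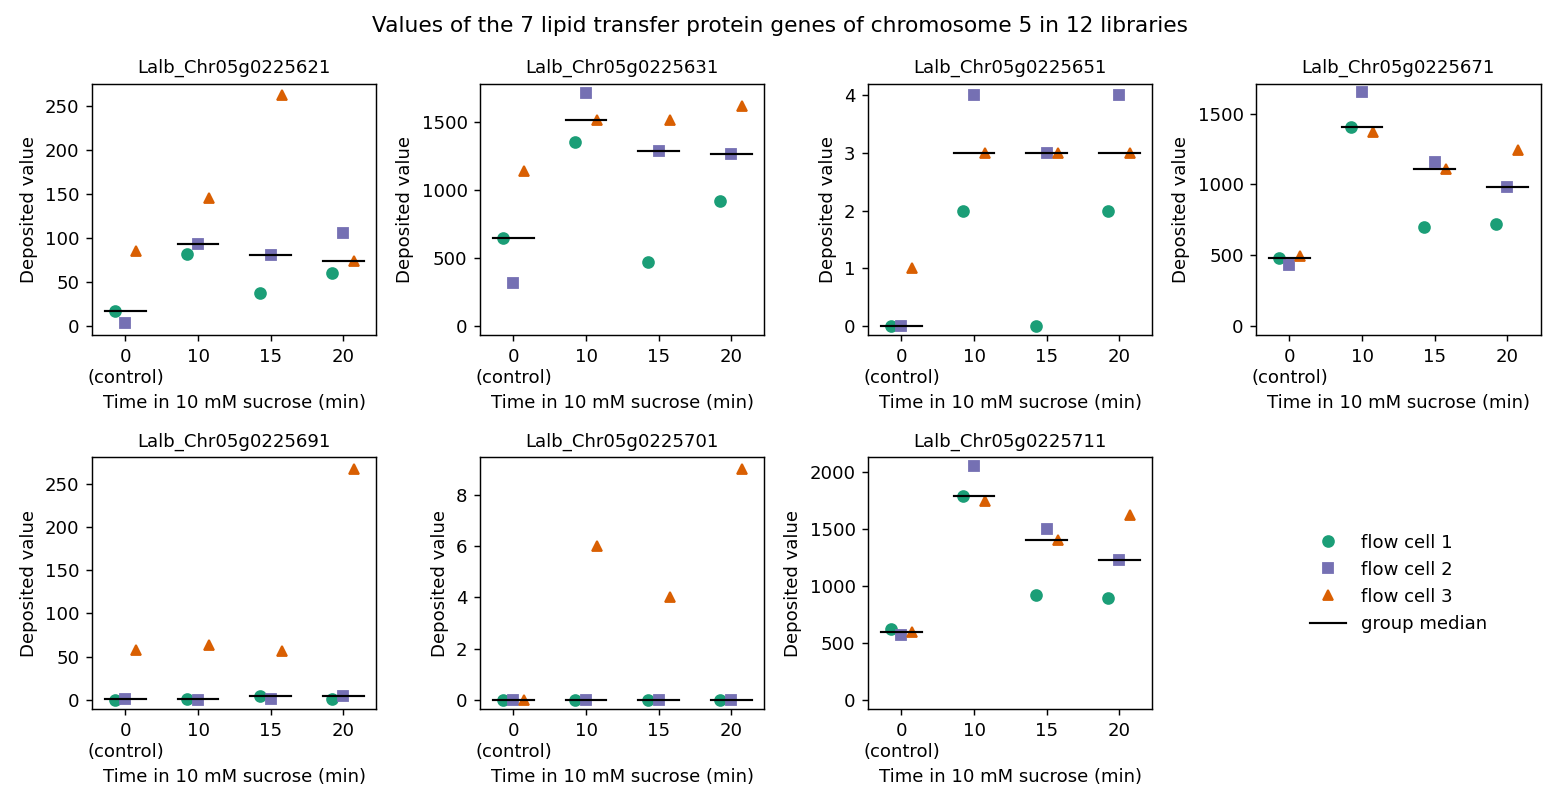
Deposited values (scores, no unit) of the 7 genes against time in 10 mM sucrose (min), with 1 point per library, coloured and shaped by flow cell, and a line at the median of each group. Lalb_Chr05g0225671 and Lalb_Chr05g0225711 had every sucrose library above every control library, whereas Lalb_Chr05g0225691 was at 57 to 267 in flow cell 3 and at 0 to 4 elsewhere.

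A gene was tested when its value was at least 1 in at least 3 libraries. That left 19138 genes, and all 7 members were among them. In a limma fit over all tested genes, the study's thresholds (log2 FC of at least 1.5, unadjusted *p*-value of at most 0.05) were passed upward at 10 min by Lalb_Chr05g0225621, Lalb_Chr05g0225651, Lalb_Chr05g0225671 and Lalb_Chr05g0225711. Of all tested genes, 0.575% passed upward at 10 min. At 15 min 1 member passed (Lalb_Chr05g0225621, against 0.449% of all tested genes), and at 20 min 2 passed (Lalb_Chr05g0225621 and Lalb_Chr05g0225651, against 0.695%). Downward 0 of the 7 passed at each time, against 0.0732%, 0.115% and 0.131% of all tested genes at 10, 15 and 20 min. These contrasts helped to choose the genes, so nothing is read from the counts.

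The counts depended on single libraries. The 4 members of 10 min became 2 without control replicate 1 and 2 without control replicate 2, and they were 2 with either scaling between libraries. The 1 member of 15 min became 0 without control replicate 1, control replicate 2, or replicate 2 or 3 of 15 min, and 2 without replicate 1 of 15 min. The 2 members of 20 min became 0 without control replicate 1, control replicate 2 or replicate 2 of 20 min. They became 1 without any single library of 10 min, without replicate 2 of 15 min, and without replicate 1 or 3 of 20 min.

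The median log2 FC of the 7 genes came to 1.64 after 10 min, 1.00 after 15 min and 1.11 after 20 min, against 0.19, 0.06 and 0.26 for all tested genes. With each library scaled to the mean total, the members' median was 1.28, 0.98 and 1.07. All comparisons with the control share the same 3 control libraries. Not overlapping with the control was found for 4 of the 7 at 10 min (2.42% of all tested genes), 2 of the 7 at 15 min (1.56%) and 3 of the 7 at 20 min (3.86%). All 9 sucrose libraries lay above all 3 control libraries for 2 of the 7 genes and for 0.188% of all tested genes. By share of the library total, the libraries of a time point lay above the control for 5 of the 7 at 10 min (2.25% of all tested genes), 2 at 15 min (2.36%) and 3 at 20 min (4.17%), and all 9 sucrose libraries did so for 1 of the 7 (0.34%).

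Within a flow cell, each sucrose library can be set against the control of the same replicate. This gives 9 pairs per gene, and the 3 pairs of a flow cell share the same control library. Lalb_Chr05g0225671 was higher under sucrose in 9 of 9 pairs, by 0.55 to 1.94 on the log2 scale, and Lalb_Chr05g0225711 in 9 of 9, by 0.51 to 1.86. For both genes the 9 of 9 follows from the separation of the groups by value given above. After scaling to the mean total both were still higher in 9 of 9, by 0.24 to 1.59 and by 0.16 to 1.70. Lalb_Chr05g0225621, Lalb_Chr05g0225631 and Lalb_Chr05g0225651 were higher in 8 of 9 pairs each. Lalb_Chr05g0225691 was higher in 6 of 9 and Lalb_Chr05g0225701 in 3 of 9, the other 6 being 0 against 0.

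The size of the difference varied by flow cell for the genes with a low control replicate 2. For Lalb_Chr05g0225631 the mean of the 3 pairs was 0.37 in flow cell 1, 2.16 in flow cell 2 and 0.44 in flow cell 3. For Lalb_Chr05g0225621 it was 1.69, 4.23 and 0.71. It was more even for Lalb_Chr05g0225671, at 0.90, 1.52 and 1.32. These means are without scaling, and control replicate 2 had the lowest library total. Scaled to the mean total, the pairs of Lalb_Chr05g0225671 at 10, 15 and 20 min were 1.17, 0.95 and 0.37 in flow cell 1. They were 1.19, 0.73 and 0.24 in flow cell 2 and 1.53, 1.26 and 1.59 in flow cell 3, then the largest at each time. For Lalb_Chr05g0225631 and Lalb_Chr05g0225621 the scaled pairs were still largest in flow cell 2.

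The variation of log2(value + 1) over the 12 libraries was divided into a share between time points, a share between flow cells (and so between replications) and a rest. Time took 86.1% for Lalb_Chr05g0225671 and 85.6% for Lalb_Chr05g0225711, with 6.12% and 5.83% for the flow cell. For Lalb_Chr05g0225691 the order was turned, with 5.29% for time and 89.6% for the flow cell, and for Lalb_Chr05g0225701 the flow cell took 64.9%. Lalb_Chr05g0225651 (58.1% time), Lalb_Chr05g0225621 (46.3%) and Lalb_Chr05g0225631 (43.0%) stood between, each with 23.4% to 25.0% for the flow cell. Over all tested genes the medians were 17.4% for time and 24.7% for the flow cell.

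**Figure D2:**
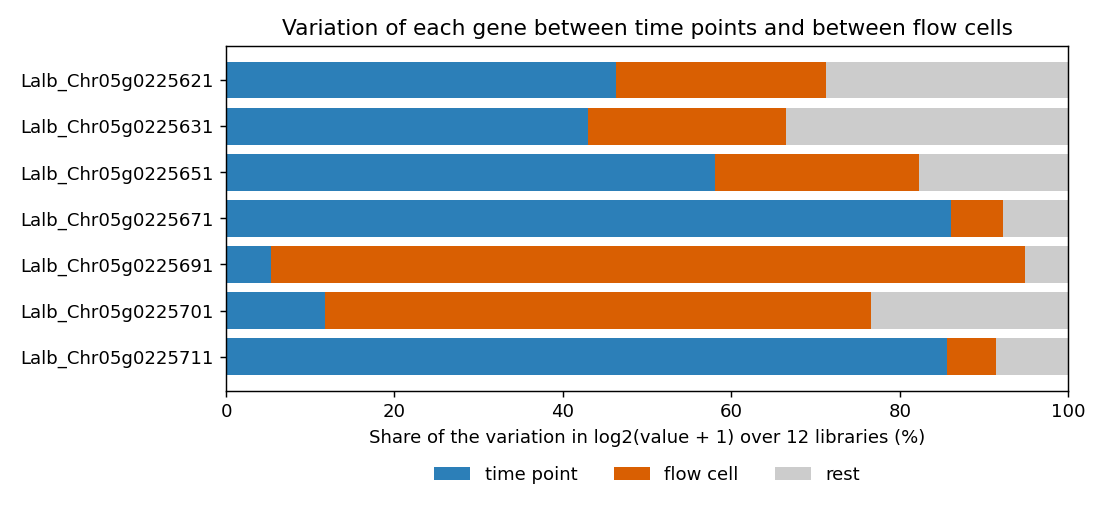
Share (%) of the variation in log2(value + 1) over 12 libraries that lay between time points, between flow cells (and so between replications) and in the rest, with 1 bar per gene. Time took over 85% only for Lalb_Chr05g0225671 and Lalb_Chr05g0225711, and the flow cell took 89.6% for Lalb_Chr05g0225691.

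The 2 genes with the same UniProt entry kept a nearly fixed ratio. The value of Lalb_Chr05g0225711 divided by that of Lalb_Chr05g0225671 lay between 1.22 and 1.32 in all 12 libraries, with a mean of 1.28 ± 0.0336 (SD). Control libraries had a ratio of 1.28 ± 0.056, those of 10 min 1.27 ± 0.0167, those of 15 min 1.29 ± 0.022 and those of 20 min 1.26 ± 0.0379 (SD, n = 3 each). The values themselves were 3.15-fold and 3.12-fold higher at 10 min than in the control. Over the 12 libraries, which share depth and flow cell effects, the Pearson correlation of the pair on the log2 scale was 0.998, and the SD of the log2 ratio was 0.04.

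Other pairs were looser. Lalb_Chr05g0225671 and Lalb_Chr05g0225631 had a correlation of 0.81 and an SD of the log2 ratio of 0.46. Lalb_Chr05g0225691 and Lalb_Chr05g0225701, the other pair with a single UniProt entry, had 0.83 and 1.87. Lalb_Chr05g0225671 and Lalb_Chr05g0225691, which are adjacent members, had a correlation of 0.17. In the whole table, 103 UniProt entries belonged to exactly 2 genes, and 35 of these pairs had a mean value of at least 20 in both genes. The median SD of the log2 ratio over the 35 pairs was 0.34, and the pair of Lalb_Chr05g0225671 and Lalb_Chr05g0225711 had the fourth smallest. Only the shared protein entry is known, not whether the transcripts of these 2 genes are identical. Whether the quantification divided reads between them was not tested, so the value of each is less certain than their sum.

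**Figure D3:**
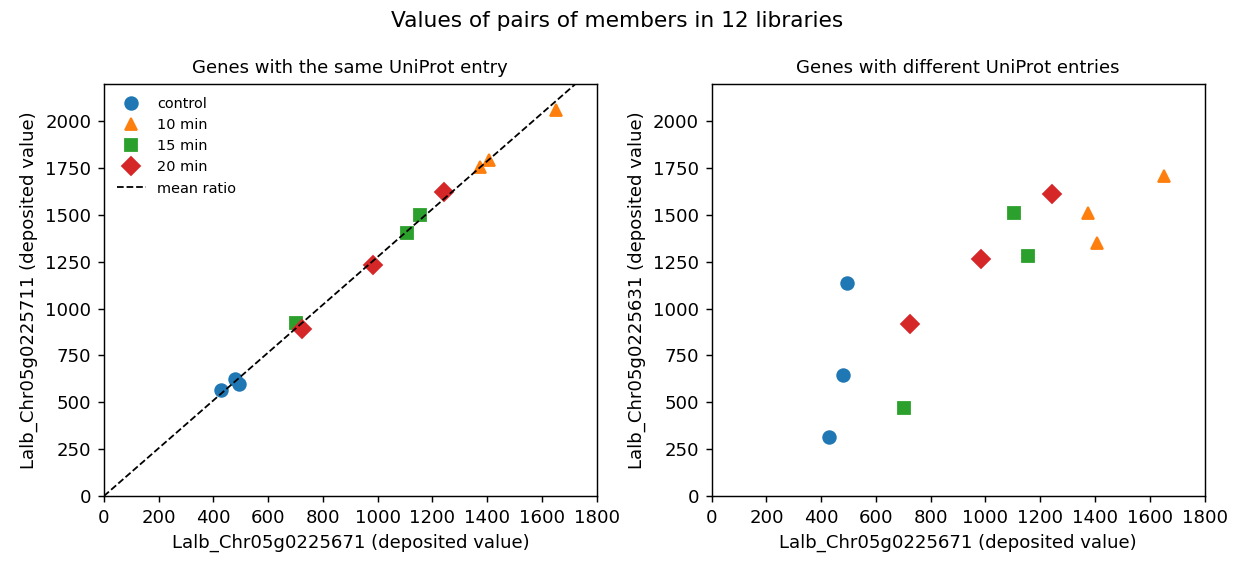
Values (scores, no unit) of Lalb_Chr05g0225671 against Lalb_Chr05g0225711 (left) and Lalb_Chr05g0225631 (right), with 1 point per library, shaped by time point, and a dashed line at the mean ratio of 1.28 on the left. All points on the left lie along that line (ratios 1.22 to 1.32), and those on the right scatter.

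Summing the 7 genes avoids that problem. The control libraries summed to 1769, 1315 and 2374, those of 10 min to 4633, 5515 and 4856, those of 15 min to 2136, 4023 and 4347, and those of 20 min to 2600, 3589 and 4831. Lalb_Chr05g0225631, Lalb_Chr05g0225671 and Lalb_Chr05g0225711 made up between 92.5% and 99.6% of it. As a share of the library total, the control had 0.659% ± 0.0688, 10 min had 1.46% ± 0.277, 15 min had 1.19% ± 0.138 and 20 min had 1.10% ± 0.293 (SD, n = 3 each). By this share every sucrose library (lowest 0.858%, replicate 1 of 20 min) was above every control library (highest 0.714%). By value, replicate 1 of 15 min (2136), a library with a low total, was below control replicate 3 (2374), and the log2 FC of the sum was 1.5, 0.92 and 1.01 at 10, 15 and 20 min.

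The cluster also made up a larger part of the summed values of genes with a lipid transfer protein name. Of the sum over the 72 genes, the 7 made up 27.4%, 24.6% and 23.8% in the control. In the libraries of 10 min it was 43.8%, 55.9% and 43.4%, in those of 15 min 41.2%, 45.5% and 40.5%, and in those of 20 min 33.2%, 38.7% and 48.9%. The other 65 genes together were at 1.80% to 2.19% of the library total in the control and at 1.40% to 1.77% under sucrose. Thus the summed share of the other genes was lower in all 9 sucrose libraries than in the 3 control libraries. Both this and the higher share of the cluster enter the larger part of the cluster. The lower sum does not describe the other genes singly: Lalb_Chr13g0291901 alone held 2861, 2591 and 3443 of the control sums of 4679, 4033 and 7592. The median log2 FC of the 50 tested genes among the 65 was 0.34, 0.22 and 0.20 at 10, 15 and 20 min. For all tested genes it was 0.19, 0.06 and 0.26. The comparison of the cluster with the other 65 genes was made after the values were seen. The 7 genes were themselves chosen with these values in view, so no support is drawn from it.

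**Figure D4:**
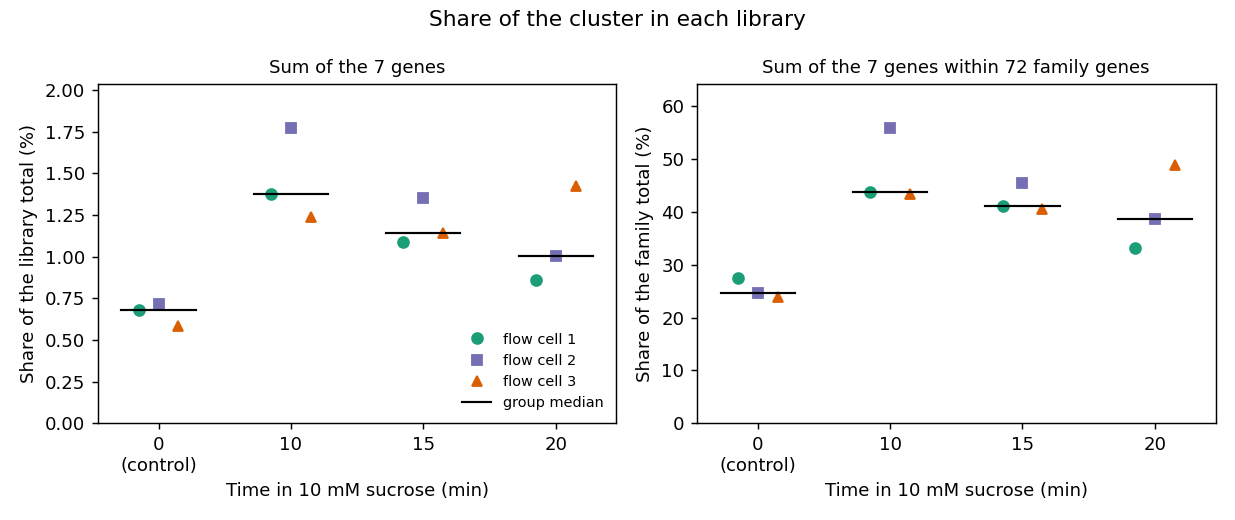
Sum of the 7 genes as a share (%) of the library total (left) and of the sum over 72 genes with a lipid transfer protein name (right), against time in 10 mM sucrose (min), with 1 point per library by flow cell and a line at the group median. On both sides all 9 sucrose libraries lie above the 3 control libraries (left 0.858% and more against at most 0.714%).

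The surrounding genes were not used to choose the cluster. Of the 10 nearest genes with a value on each side and the 2 genes between members, 22 in all, 16 passed the filter. At 10 and at 20 min, 0 of the 16 passed the study's thresholds by limma in either direction (background 0.648% and 0.826%), with an unadjusted *p*-value of at most 0.05 for 2 and for 1 (2.38% and 3.76% of all tested genes). At 15 min 1 of the 16 passed upward (background 0.564%), which was also the single one with such an unadjusted *p*-value (1.96%). After adjustment 0 of the 16 passed 0.05 at any time, against 0.00523% of all tested genes at each time. Their median log2 FC came to 0.33 after 10 min, 0.15 after 15 min and 0.40 after 20 min, beside the 0.19, 0.06 and 0.26 of all tested genes.

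Both immediate neighbours had low values. Lalb_Chr05g0225611, named as a nitrate-transporting ATPase, had values between 0 and 5 and a log2 FC of 0.33, 0.33 and 0.58 at 10, 15 and 20 min (limma, adjusted *p* = 1, 1 and 0.979). Lalb_Chr05g0225721, named as an NADH:ubiquinone reductase, an enzyme of the respiratory chain, had values between 5 and 19 and a log2 FC of 0.55, −0.14 and 0.47 (limma, adjusted *p* = 1, 1 and 0.979).

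The gene that passed at 15 min was Lalb_Chr05g0225531, named as an L-ascorbate oxidase, a copper enzyme of the cell wall. Its control libraries were all listed at 0, those of 10 min at 2, 3 and 0, those of 15 min at 3, 2 and 1, and those of 20 min at 2, 2 and 1. Its log2 FC at 15 min was 1.53 (SE 0.49, limma, adjusted *p* = 1). Without replicate 1 of 15 min it was 1.29 and with a pseudocount of 5 it was 0.48, and in both cases the count at 15 min became 0. The same gene passed at 10 min without replicate 3 of 10 min (1.79) and at 20 min without replicate 3 of 20 min (1.58), and the count there became 1.

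Of the 16 tested genes around the cluster, 3 were higher in all 4 libraries of flow cell 3 than in the other 8, against 7.86% of all tested genes, and 1 was lower, against 1.94% (8.7% by share of the library total). They are named here after their values were seen. In flow cell 3, Lalb_Chr05g0225731 (L-lactate dehydrogenase, an enzyme of fermentation) had values of 87 to 197 against 10 to 19 in the other 8 libraries, and Lalb_Chr05g0225751 (autophagy-related protein) 46 to 67 against 8 to 27. The uncharacterized Lalb_Chr05g0225551 had 16 to 55 against 0 to 7, and the uncharacterized Lalb_Chr05g0225821 was lower, at 2 to 4 against 37 to 113.

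**Figure D5:**
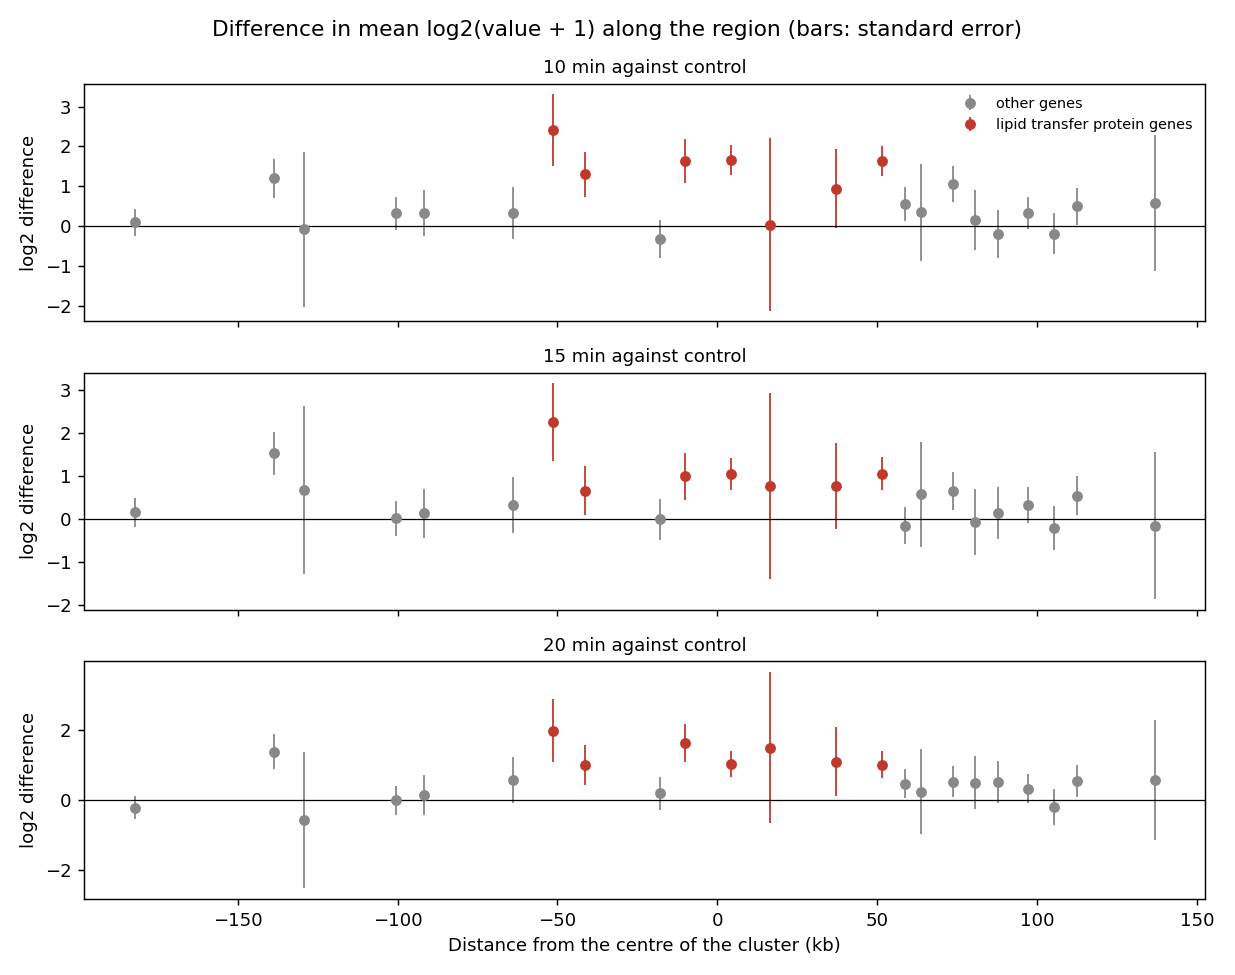
Log2 FC against the control at 10, 15 and 20 min for the tested genes of the region, against distance from the centre of the cluster (kb), with SE bars. The 7 lipid transfer protein genes are red (0.04 to 2.40 at 10 min) and their neighbours are grey, with a median of 0.33 at 10 min.

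Outside the cluster, 65 genes carried a lipid transfer protein name, and 50 passed the filter. The list comprises 41 further bifunctional inhibitor genes, 9 genes named for Par allergens, which are pollen lipid transfer proteins, 7 non-specific lipid transfer proteins, and 8 glycolipid transfer proteins, which belong to an unrelated family and were found by the words alone. By limma, 3 of the 50 rose at 10 min (background 0.575%), 2 at 15 min (0.449%) and 3 at 20 min (0.695%), and 0 fell at each time, with an unadjusted *p*-value of at most 0.05 for 3 at each time. After adjustment 0 of the 50 passed 0.05. The median log2 FC of the 50 was 0.34, 0.22 and 0.20, with 70.0%, 66.0% and 66.0% of them above 0, beside 68.3%, 60.1% and 70.8% of all tested genes.

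These counts were carried by few libraries. At 10 min the count was 1 without control replicate 1 or 2 and 9 without control replicate 3. At 15 min it was 1 without control replicate 1 or 2 or replicate 2 or 3 of 15 min, 4 without control replicate 3 and 6 without replicate 1 of 15 min, and 1 gene fell without control replicate 2. At 20 min it was 1 without control replicate 2, replicate 2 of 10 min or replicate 2 of 15 min, and 7 without control replicate 3. With the flow cell as a block it was 5, 4 and 5, since libraries are paired by flow cell.

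The gene outside the cluster that rose at all 3 times was Lalb_Chr12g0198241, on chromosome 12. Control libraries were listed at 0, 0 and 2, those of 10 min at 14, 25 and 11, those of 15 min at 17, 6 and 18, and those of 20 min at 11, 11 and 8, without overlap. Its log2 FC was 3.54, 3.21 and 2.92 (SE 0.54, limma, adjusted *p* = 0.277, 0.67 and 0.647). It passed the thresholds with each library left out in turn, and was lost only at 20 min with a pseudocount of 5 (1.42).

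Lalb_Chr09g0334191 and Lalb_Chr15g0081801 resembled Lalb_Chr05g0225621 in their spread. For Lalb_Chr09g0334191 the control libraries stood at 11, 2 and 60 and those of 10 min at 49, 49 and 119, with a log2 FC of 2.36 (SE 1.02, limma, adjusted *p* = 1). The call was lost without control replicate 1 (2.31) or 2 (1.31), without replicate 1 (2.58), 2 (2.58) or 3 (1.94) of 10 min, and without replicate 3 of 20 min (2.36). It did not pass at 15 and 20 min (1.80 and 2.07, limma, adjusted *p* = 1 and 0.979), but did so there with the flow cell as a block, with total scaling (1.80 and 1.84) and without flow cell 3 (1.98 and 3.14). It also did so without control replicate 3 (2.91 and 3.18), without replicate 1 of 15 min at 15 min (2.51), and without replicate 3 of 15 min at 20 min (2.07).

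Lalb_Chr15g0081801 had 10, 1 and 49 in its control libraries, 36, 65 and 76 in those of 10 min and 20, 55 and 160 in those of 15 min. It passed at 10 and 15 min (2.47 and 2.48, SE 1.05, limma, adjusted *p* = 1 at both). Both calls were lost without control replicate 1 (2.52 at both times) and control replicate 2 (1.29 at both times). That of 10 min was also lost without replicate 2 (2.37) or 3 (2.26) of 10 min, and that of 15 min without replicate 2 (2.49) or 3 (1.73) of 15 min. It passed at 20 min too without control replicate 3 (3.14) or without flow cell 3 (3.66).

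At 20 min Lalb_Chr17g0337121 and Lalb_Chr04g0257621 passed. For Lalb_Chr17g0337121 the control libraries stood at 1, 1 and 9 and those of 20 min at 8, 8 and 49 (log2 FC 2.22, SE 0.99, limma, adjusted *p* = 0.979). The call was lost without control replicate 1 or 2 (1.83 for both), without replicate 2 of 10 min or of 15 min (2.22 for both), without replicate 3 of 20 min (1.40), with median-of-ratios scaling (2.03) and with a pseudocount of 5 (1.39). With the flow cell as a block it also passed at 10 and 15 min, as it did without flow cell 3 (1.82 and 1.75), without control replicate 3 (2.56 and 2.57), without replicate 1 of 10 min at 10 min (2.41) and without replicate 1 of 15 min at 15 min (2.42).

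For Lalb_Chr04g0257621 the control libraries were listed at 3, 0 and 0 and those of 20 min at 9, 5 and 1 (log2 FC 1.64, SE 0.74, limma, adjusted *p* = 0.979). The call was lost without control replicate 2 or 3 (1.30 for both), without replicate 1 (1.13) or 2 (1.49) of 20 min, and, at an unmoved 1.64, without replicate 2 or 3 of 10 min or replicate 1 or 2 of 15 min. It was also lost with median-of-ratios scaling (1.47), total scaling (1.51), a pseudocount of 0.5 (2.16) or of 5 (0.69), and without flow cell 3 (1.95).

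Among all tested genes outside the cluster, those most like the mean of the 7 centred members over the 12 libraries were sought by Pearson correlation on the log2 scale, as a description. The closest was Lalb_Chr03g0030741, named as a MYC/MYB transcription factor (r = 0.975). Its values were only 2 to 10 over the 12 libraries, so its correlation rests on a few units. Lalb_Chr08g0231331 (hypoxia induced protein, r = 0.971), Lalb_Chr17g0337121 (r = 0.971), the uncharacterized Lalb_Chr05g0224011 (r = 0.969) and Lalb_Chr07g0178771 (early nodulin-93, r = 0.967) followed. The mean is moved most by Lalb_Chr05g0225691, the member with the widest range, and several of these genes were likewise high in flow cell 3. Lalb_Chr07g0178771, for example, had values of 143 to 1391 in flow cell 3 and of 2 to 118 in the others.

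For the sum of the members, a measure added after this was seen, the closest gene was Lalb_Chr07g0185121, named for a PLAT/LH2 domain, a domain known from lipoxygenases and other lipid-associated proteins (r = 0.929). Control values were 78, 40 and 103, those of 10 min 162, 231 and 122, those of 15 min 66, 191 and 149, and those of 20 min 105, 150 and 183. Like the sum, it was above the control in all libraries of 10 min and lowest under sucrose in replicate 1 of 15 min. The libraries share depth, which enters every such correlation.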

How the data were processed

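The study's methods name Pychopper for trimming of the Nanopore cDNA reads, Minimap2 for their alignment to the assembly CNRS_Lalb_1.0, StringTie for transcript models and Salmon for quantification, all run by the authors within an Epi2me workflow. The deposited values, named CPM, are whole numbers and were used as a score, because how they were made from the Salmon output is not given in the sources used here. Reads from near-identical genes may be divided between them. The authors' own DESeq2 comparison (means, log2 fold changes, standard errors, statistics and p-values) was not used.

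Identifiers of all 23427 genes were matched to the reference annotation. A linear model on log2(value + 1) was fitted to each gene in limma 3.58.1 (R 4.3.3; trended variance), all 12 libraries in a single fit with 4 groups, two-sided p-values and Benjamini-Hochberg adjustment over 19138 genes. No scaling between libraries was applied in the main fit. The fit was tested on simulated data. Tables were made with Python 3.11.15, numpy 2.4.6 and pandas 2.3.3.

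Genes outside the cluster were named if they lay between members or next to them, if they were among the 10 flanking genes on each side or the lipid transfer protein names and passed the thresholds, or if they were among the 5 most alike. Lalb_Chr13g0291901, the genes most like the summed members and the flanking genes that differed by flow cell were named after their values were seen. The members and lists were chosen with earlier results of these data known. Libraries are paired by flow cell: after subtraction of the group mean of each gene, libraries of a flow cell had a median correlation of 0.284, 0.259 and 0.532 (flow cells 1, 2 and 3). Alternatives were pseudocounts of 0.5 and 5, median-of-ratios and total scaling, no filter, a replicate block, and leaving out each library. Leaving out flow cell 3, correlation with the summed members and the CASP-like name were added after seeing the data.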

Additional observations from a re-analysis of the deposited data

How the results depend on the processing

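The median log2 FC of the 7 members lay between 1.28 and 1.75, 0.66 and 1.06, and 1.00 and 1.42 at 10, 15 and 20 min under the other settings, and between 1.41 and 1.75, 0.81 and 1.28, and 0.83 and 1.66 when single libraries were left out. Of 387 values of single members under the alternatives, 10 moved by more than the residual SD of the gene (Lalb_Chr05g0225651 with a pseudocount of 5, and Lalb_Chr05g0225671 and Lalb_Chr05g0225711 with either scaling, all at 10 and 20 min). Lalb_Chr05g0225701 could not be fitted where its filter failed, that is without flow cell 3 or any library in which it was above 0. The number of members called up was 2 with median-of-ratios scaling and 2 with total scaling at 10 min, and 0 with a pseudocount of 5 at 20 min. With the replicate block (libraries paired by flow cell) it was 4, 1 and 3, and with libraries left out it ranged from 2 to 5, 0 to 2 and 0 to 2.

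For the flanking genes the number called was 2 without flow cell 3 and 2 with a pseudocount of 0.5 at 10 min, 0 with a pseudocount of 5 at 15 min, and 1 and 1 with the first pair of settings at 20 min. It was 0 to 1 at each time with libraries left out. For the other lipid transfer proteins the number called up without flow cell 3, a setting chosen after seeing the data, was 8, 4 and 6, and with the replicate block 5, 4 and 5. At 20 min it was 1 with median-of-ratios scaling and 0 with a pseudocount of 5, and at 15 min 1 gene was called down with a pseudocount of 0.5. With libraries left out it ranged from 1 to 9, 1 to 6 and 1 to 7 up, and from 0 to 1 down at 15 min.

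Over all tested genes, 124, 108 and 158 were called at 10, 15 and 20 min. The counts were 344, 232 and 432 without flow cell 3, 308, 284 and 444 with a pseudocount of 0.5, 27, 18 and 15 with a pseudocount of 5, and 120 to 303, 104 to 231 and 144 to 321 with libraries left out. With 3 libraries per group and an unknown number of reads behind each value, differences of genes with values of a few units are not resolved.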
